A study of Mus musculus with 6 samples.

Results

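The 10 circadian clock genes described here are Arntl, Clock, Per1, Per2, Per3, Cry1, Cry2, Nr1d1, Nr1d2 and Dbp. They were chosen by symbol from a count table of 18197 gene symbols, all 10 were found, and all 10 had enough counts to be tested. The libraries are RNA-seq of cancer-associated fibroblasts, the stromal cells that make and remodel tumour matrix, sorted by fluorescence-activated cell sorting from mammary tumours of C57BL/6 mice. In every mouse the tumour was driven by the polyoma middle T oncogene (PyMT), and tumours were taken at 16 to 20 weeks. There are 3 libraries labelled mPGES-1 KO, from PyMT mice without microsomal prostaglandin E synthase-1, which makes prostaglandin E2 (PGE2), and 3 labelled WT, from PyMT mice with that enzyme. The sources used here do not give the promoter of the oncogene, the markers of the sort, the extent of the knockout or the time of day of harvest. Whether the replicates are different mice is not in the labels, so a p-value here measures only the spread among these libraries, which may be technical.

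The circadian clock is a transcriptional feedback loop that runs in nearly every cell, fibroblasts included. CLOCK and BMAL1, the protein that Arntl encodes, bind as a pair to E-boxes and switch on the Per and Cry genes, whose proteins return to the nucleus and block that pair. The pair also drives Nr1d1 and Nr1d2, whose products REV-ERB alpha and REV-ERB beta repress Arntl through ROR elements, and Dbp, an activator of D-box genes. Because of this wiring Arntl RNA usually peaks at about the opposite phase of the day to Nr1d1, Dbp and Per3 RNA, so the level of any member depends on the hour at which a tissue is taken. Per1 and Per2 also answer to signals such as cAMP and glucocorticoids.

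Total counts ran from 23013498 to 37249186 under the label mPGES-1 KO and from 37432510 to 43648450 in those labelled WT. Ptges, the targeted gene, was at 186, 137 and 129 CPM (reads of a gene scaled to a common library total) in mPGES-1 KO replicates 1 to 3, against 31.9, 19.2 and 27.9 CPM across WT replicates 1 to 3. The level was higher under the label of the knockout (log2 fold change 2.51 ± 0.31, edgeR adjusted p = 0.0171), and this call was lost without mPGES-1 KO replicate 2 (0.0881), mPGES-1 KO replicate 3 (0.0658) or WT replicate 2 (0.0752). Counts summed over a whole gene do not show whether a part of it is deleted, so every direction below rests on the labels. The libraries also differed in markers of other cells. Of 12 luminal epithelial markers 6 were called higher, and their summed share of counts was 4.26 to 5.53% in the libraries labelled mPGES-1 KO, against 1.34 to 1.84% for WT. Of 12 pericyte markers 9 were called lower, with a summed share of 0.0248 to 0.0493% in the libraries labelled mPGES-1 KO, against 0.345 to 0.976% for WT. Summed shares of 9 fibroblast markers overlapped, at 0.647 to 1.72% for mPGES-1 KO and 0.961 to 2.58% for WT. Singly, 1 of these 9 was called lower, and 3 were positive and 6 negative (log2 fold changes -3.22 to 0.43, median -0.67). None of the 57 markers measured, mitochondrial genes included, was at 0 in all libraries of a group. All 6 mitochondrial genes had positive log2 fold changes (median 1.06, edgeR adjusted p from 0.146 to 0.449), with a summed share of 2.02 to 2.76% for mPGES-1 KO, against 0.550 to 2.27% for WT. Leukocyte markers were positive in 8 of 10 (median 1.17, edgeR adjusted p from 0.109 to 0.834), at 0.0346 to 0.130% for mPGES-1 KO and 0.0240 to 0.0775% for WT, and 8 endothelial markers summed to 0.00176 to 0.0132% for mPGES-1 KO and 0.00581 to 0.0295% for WT. Across all 16543 genes tested, edgeR's quasi-likelihood test with Benjamini-Hochberg adjustment called 456 at an adjusted p under 0.05. This count was 160, 0 and 0 on leaving out mPGES-1 KO replicates 1, 2 and 3, and 568, 1 and 150 on leaving out WT replicates 1, 2 and 3.

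The elements through which the clock proteins act can be read in some of the members' own promoters, and they are shown for the members whose promoter held any motif searched. RefSeq promoters on GRCm38.p6, from 250 bases before to 50 after a gene's start, were at hand for 9 of the 10 members, Per2 being the exception, in 13 windows. They were searched on both strands for the E-box CACGTG, the non-canonical E-box CACGTT, the D-box TTATGTAA or TTACGTAA, the ROR element core TAGGTCA or TGGGTCA, and the cAMP response element TGACGTCA. Stretches around each match follow, 5′ to 3′ on the strand of the gene, with the matched bases in capitals.
Per1, chr11:69098763-69098808, plus strand: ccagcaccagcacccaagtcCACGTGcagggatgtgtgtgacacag
Cry1, chr10:85185089-85185153, minus strand: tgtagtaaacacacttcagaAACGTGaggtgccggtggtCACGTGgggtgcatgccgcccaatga
Cry2, chr2:92434210-92434255, minus strand: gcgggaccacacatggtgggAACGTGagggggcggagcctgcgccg
Nr1d1, chr11:98775380-98775425, minus strand: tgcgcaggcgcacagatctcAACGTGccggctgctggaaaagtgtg
Per3, chr4:151044796-151044890, minus strand: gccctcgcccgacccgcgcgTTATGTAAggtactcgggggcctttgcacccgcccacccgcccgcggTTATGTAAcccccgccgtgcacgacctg
Arntl, chr7:113207521-113207560, plus strand: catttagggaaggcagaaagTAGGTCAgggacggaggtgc

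Per1 and Cry1 held the canonical E-box, 166 and 60 bases before a start, in 2 of the 13 windows. It was held by 7.15% of all 32851 promoters searched. Cry1, Cry2 and Nr1d1 held the non-canonical form, read as AACGTG on the gene's strand, which 4.68% of all promoters held. Per3 held 2 copies of the D-box, 205 and 158 bases before its start, an element found in 1.06% of all promoters. Arntl held the ROR element core 30 bases after a start, in 1 of the 13 windows, where 6.45% of all promoters held it. Another window of Arntl, and another of Per1, held no motif searched, so these matches depend on the annotated start used. The cAMP response element, found in 1.79% of all promoters, was in none of the 13 windows. These are matches of letters in short windows and describe the sequence only.

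None of the 10 clock genes was called different between the libraries labelled mPGES-1 KO and those labelled WT. The edgeR test called 0 of 10 at an adjusted p under 0.05, where 2.76% of all genes tested were called (1.2% higher and 1.56% lower), and 1 of 10, Nr1d2, had an unadjusted p under 0.05, where 19.1% of all genes did. DESeq2 and limma-voom each called 1 of 10, again Nr1d2, where they called 14.3% and 11.8% of all genes given an adjusted p. In 2 of 10, Nr1d1 and Nr1d2, the groups did not overlap and the libraries labelled mPGES-1 KO were higher, where 12.2% of all genes were so separated in that direction and 27.9% in either. The log2 fold changes of the 10 ran from -0.34 to 1.87, with 7 positive and 3 negative and a median of 0.32, against a median of -0.04 over all genes tested. In absolute size their median was 0.41, against 0.75 over all genes. In 7 of the 10 the 95% interval held both 0 and a log2 difference of 1 in the positive direction. The intervals of Per3 (-1.57 to 0.90) and Dbp (-1.48 to 0.87) held both 0 and a log2 difference of 1 in the negative direction.

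**Figure D1:**
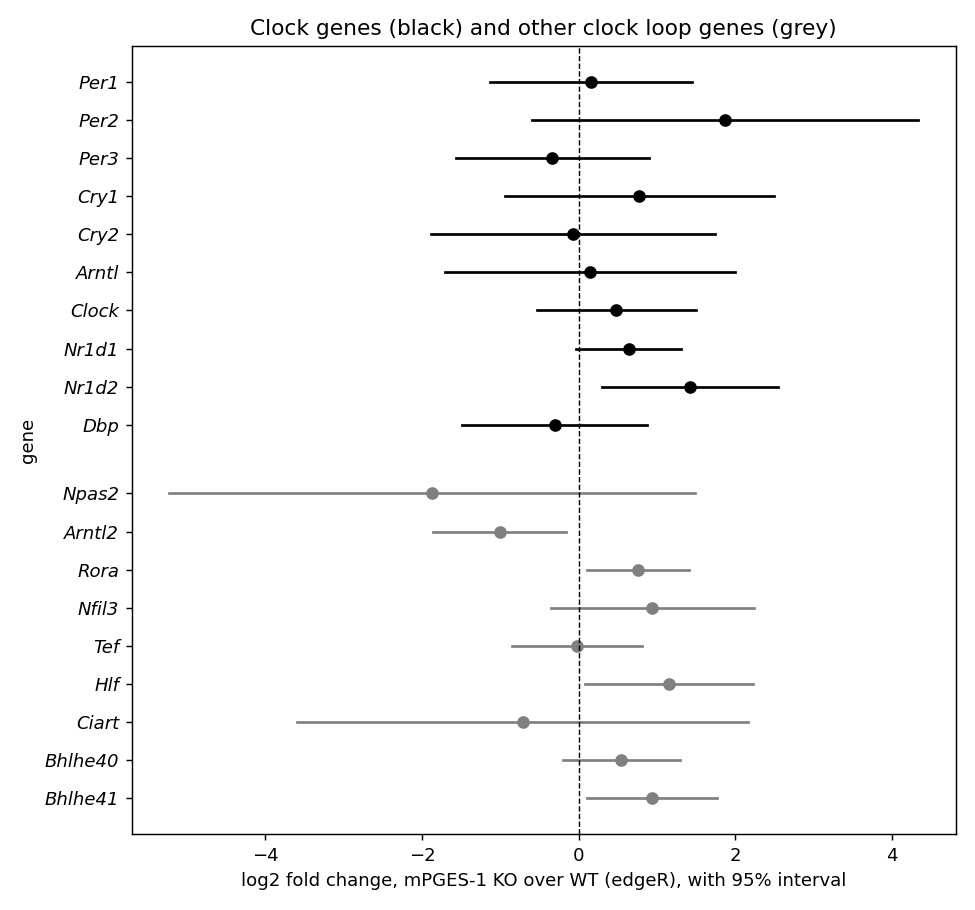
Log2 fold change of mPGES-1 KO over WT for the 10 clock genes (black) and 9 other tested genes of the clock loops (grey), with the 95% interval of the edgeR fit over 3 libraries per group. Among the 10 clock genes only the Nr1d2 interval lies to the right of 0, and no gene shown passed an adjusted p of 0.05.

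Arntl, which encodes the activator BMAL1, varied far more within the libraries labelled mPGES-1 KO than between the groups. It was at 50.5, 23.4 and 3.68 CPM across mPGES-1 KO replicates 1 to 3, against 31.7, 22.6 and 15.8 CPM across WT replicates 1 to 3. The highest and the lowest of all 6 libraries were thus both labelled mPGES-1 KO, and they differed 13.7-fold, while the libraries labelled WT spanned 2.00-fold. The low library held 130 reads of Arntl, which gives a 95% counting interval of 3.08 to 4.37 CPM, against 47.9 to 53.3 CPM in mPGES-1 KO replicate 1, so the gap is wider than counting error. The mean was 25.9 ± 23.5 CPM for mPGES-1 KO and 23.4 ± 7.96 CPM for WT (SD, n = 3 each), with a log2 fold change of 0.15 ± 0.80 (SE; 95% interval -1.71 to 2.00, edgeR adjusted p = 0.951). That value became -0.79 without mPGES-1 KO replicate 1 and -0.07 without WT replicate 3. Such counting intervals leave out amplification error, because reads copied by PCR and not tagged by molecule are not independent.

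Clock, the gene of BMAL1's partner, was at 88.5, 33.0 and 55.7 CPM across mPGES-1 KO replicates 1 to 3, against 58.9, 30.0 and 37.7 CPM across WT replicates 1 to 3. The groups overlapped, replicate 1 was the highest library of each group, and the log2 fold change was 0.48 ± 0.44 (95% interval -0.53 to 1.5, edgeR adjusted p = 0.622). Npas2, whose protein can take the place of CLOCK, spread over 2 orders of magnitude, with 5.60, 3.77 and 0.595 CPM across mPGES-1 KO replicates 1 to 3 and 0.205, 10.7 and 25.5 CPM across WT replicates 1 to 3. It was low in mPGES-1 KO replicate 3 and in WT replicate 1, and the groups overlapped (log2 fold change -1.87 ± 1.45, edgeR adjusted p = 0.557). Arntl2, the paralog of Arntl, was even within the libraries labelled mPGES-1 KO, at 16.8, 15.6 and 16.3 CPM, all below the 25.6, 42.2 and 30.1 CPM of WT replicates 1 to 3. Its log2 fold change of -1.01 ± 0.37 did not pass (edgeR adjusted p = 0.187).

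Among the Period genes, which encode the repressor's core, the values went different ways. Per1 was at 57.4, 46.3 and 70.3 CPM across mPGES-1 KO replicates 1 to 3, against 18.9, 39.9 and 96.9 CPM across WT replicates 1 to 3. All 3 libraries labelled mPGES-1 KO lay inside the WT range, which spanned 5.12-fold. The mean was 58.0 ± 12.0 CPM for mPGES-1 KO and 51.9 ± 40.3 CPM for WT, and the log2 fold change was 0.16 ± 0.56 (95% interval -1.13 to 1.45, edgeR adjusted p = 0.920); it became -0.20 without WT replicate 1.

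Per2 was at 30.0, 27.5 and 4.22 CPM across mPGES-1 KO replicates 1 to 3, against 13.3, 2.16 and 1.37 CPM across WT replicates 1 to 3. It had the largest fold change among the 10 and also the widest range over the libraries, 21.8-fold. With mPGES-1 KO replicate 3 below WT replicate 1, the groups overlapped, and the log2 fold change of 1.87 ± 1.06 did not pass (95% interval -0.59 to 4.34, edgeR adjusted p = 0.406). It became 3.56 without WT replicate 1 and 1.41 without WT replicate 3. The lowest library, WT replicate 3, held 50 reads, with a counting interval of 1.02 to 1.81 CPM.

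Per3, a Period gene that is also a strongly cycling output, was the most even member in the libraries labelled WT. Its values were 10.5, 6.66 and 15.4 CPM across mPGES-1 KO replicates 1 to 3, against 12.6, 15.1 and 13.4 CPM across WT replicates 1 to 3. The WT range of 1.19-fold lay within the mPGES-1 KO range of 2.31-fold, and the log2 fold change was -0.34 ± 0.53 (95% interval -1.57 to 0.90, edgeR adjusted p = 0.803). The 2 D-boxes shown above stand in the promoter of this gene.

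The Cryptochrome genes, which encode the partners of the PER proteins, differed in which library was low. Cry1 was at 20.1, 39.2 and 4.62 CPM across mPGES-1 KO replicates 1 to 3, against 17.1, 11.7 and 8.57 CPM across WT replicates 1 to 3. Its lowest library was mPGES-1 KO replicate 3, as for Arntl, and its highest was mPGES-1 KO replicate 2. The log2 fold change of 0.78 ± 0.74 (95% interval -0.94 to 2.5, edgeR adjusted p = 0.646) became 0.034 on leaving out mPGES-1 KO replicate 2, and 1.25 on leaving out mPGES-1 KO replicate 3. Cry2 was at 28.9, 21.8 and 33.0 CPM across mPGES-1 KO replicates 1 to 3, against 3.46, 37.7 and 47.2 CPM across WT replicates 1 to 3. Here WT replicate 1 stood apart, with 152 reads and a counting interval of 2.93 to 4.06 CPM, and the log2 fold change was -0.07 ± 0.78 (95% interval -1.89 to 1.74, edgeR adjusted p = 0.975). It became 0.44 without WT replicate 3, 0.19 without WT replicate 2 and 0.09 without mPGES-1 KO replicate 2, so no direction can be given for Cry2. Of its exonic bases, 4.67% are shared with the opposite-strand transcript D930015M05Rik.

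**Figure D2:**
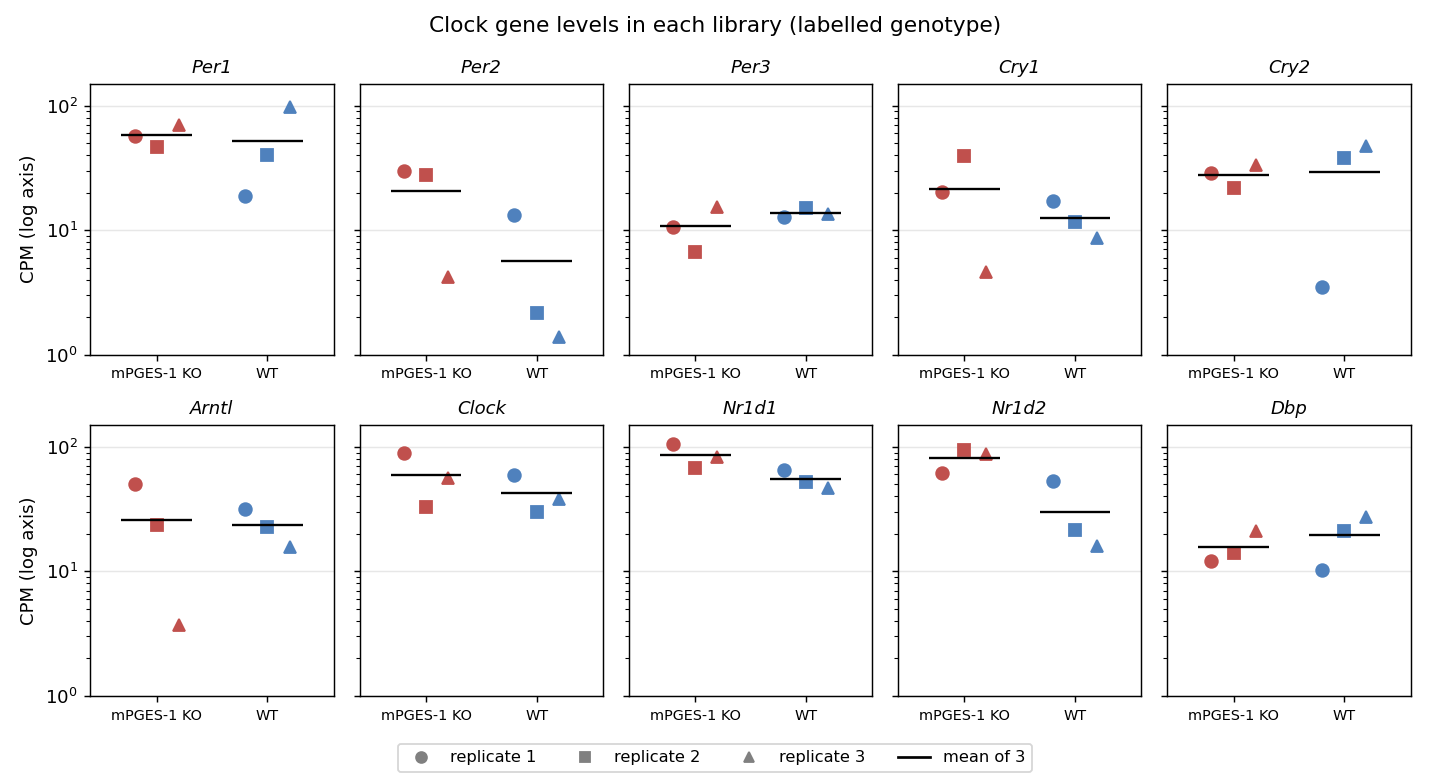
CPM of each clock gene in each library on a log axis, with circles, squares and triangles for replicates 1, 2 and 3, and a line at the mean of 3. Only in Nr1d1 and Nr1d2 do the 3 points labelled mPGES-1 KO all lie above the 3 labelled WT. Arntl and Cry1 are lowest in mPGES-1 KO replicate 3, and Cry2 is lowest in WT replicate 1.

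The REV-ERB genes were the members with the groups apart. Nr1d2, which encodes REV-ERB beta, was at 61.1, 94.7 and 87.6 CPM across mPGES-1 KO replicates 1 to 3, against 52.9, 21.6 and 15.9 CPM across WT replicates 1 to 3. The lowest library labelled mPGES-1 KO lay just above WT replicate 1, the highest labelled WT. The mean was 81.1 ± 17.7 CPM for mPGES-1 KO and 30.1 ± 19.9 CPM for WT, and the log2 fold change of 1.43 ± 0.48 (95% interval 0.305 to 2.55) had an unadjusted p = 0.0191 and an edgeR adjusted p = 0.161. The difference passed in DESeq2 (1.47, adjusted p = 0.0355), in limma-voom with quality weights (1.95, adjusted p = 0.0155) and in edgeR without WT replicate 1 (2.13, adjusted p = 0.0374), and its adjusted p ran from 0.0155 to 0.376 over 14 alternatives.

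Nr1d1, which encodes REV-ERB alpha, was at 106, 67.8 and 82.9 CPM across mPGES-1 KO replicates 1 to 3, against 65.2, 52.6 and 46.7 CPM across WT replicates 1 to 3. The groups were apart by a narrow margin, mPGES-1 KO replicate 2 against WT replicate 1, and stayed apart with library size alone or DESeq2 size factors as the scaling. The log2 fold change of 0.64 ± 0.29 did not pass (95% interval -0.03 to 1.31, edgeR adjusted p = 0.283). In the GENCODE M21 annotation of GRCm38, Nr1d1 is at chr11:98767932-98775333 (minus strand) and Nr1d2 at chr14:18204054-18239127 (minus strand), and 263 of the 3077 exonic bases of Nr1d1, or 8.55%, are shared with Thra on the opposite strand, which encodes a thyroid hormone receptor. The reads carry no strand, so reads there cannot be told apart. Thra differed the other way, at 27.3, 15.2 and 30.5 CPM across mPGES-1 KO replicates 1 to 3, against 33.7, 50.8 and 74.6 CPM across WT replicates 1 to 3 (log2 fold change -1.12 ± 0.43, edgeR adjusted p = 0.202). The same libraries that were higher in Nr1d1 and Nr1d2 held 4.26 to 5.53% luminal marker counts, against 1.34 to 1.84% in the libraries labelled WT. They also held fewer pericyte marker counts, 0.0248 to 0.0493% against 0.345 to 0.976%. The part of these other cells in the REV-ERB levels was not tested, and in bulk libraries a change in the mix of cells and a change of RNA per cell cannot be told apart. The same limit holds for every other gene described here.

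The ROR genes encode the activators that compete with REV-ERB proteins for the same elements. Rora was at 133, 83.8 and 146 CPM across mPGES-1 KO replicates 1 to 3, against 71.7, 72.5 and 70.8 CPM across WT replicates 1 to 3. Its groups were apart, with the libraries labelled WT almost equal, but the log2 fold change of 0.76 ± 0.28 did not pass (edgeR adjusted p = 0.196).

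Dbp, a D-box activator that is among the most strongly cycling outputs of the clock, was at 12.2, 14.1 and 21.1 CPM across mPGES-1 KO replicates 1 to 3, against 10.3, 21.2 and 27.2 CPM across WT replicates 1 to 3. Values overlapped, and the log2 fold change was -0.31 ± 0.51 (95% interval -1.48 to 0.87, edgeR adjusted p = 0.815); without WT replicate 3 it was 0.0036. Of the exonic bases of Dbp, 539 or 18.0% are shared with Sphk2 on the opposite strand, which makes the Dbp value uncertain. Sphk2, a sphingosine kinase gene, averaged 9.12 ± 4.25 CPM under the label mPGES-1 KO and 20.2 ± 2.58 CPM in those labelled WT (SD, n = 3 each; edgeR adjusted p = 0.282). The paralog Hlf was higher in all 3 libraries labelled mPGES-1 KO, at 21.0, 33.5 and 26.2 CPM, against 17.4, 7.67 and 11.1 CPM across WT replicates 1 to 3. Its log2 fold change of 1.16 ± 0.46 did not pass in edgeR (adjusted p = 0.229) and passed in limma-voom alone (adjusted p = 0.0423).

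Of 11 other genes of the transcriptional loops, 10 were tested and edgeR called 0, with 4 at an unadjusted p under 0.05, namely Arntl2, Rora, Hlf and Bhlhe41, where 19.1% of all genes were. DESeq2 called 0 of the 10 and limma-voom 1, Hlf, where these tools called 14.3% and 11.8% of all genes. Groups were apart in the same 4, where 27.9% of all genes were, with Rora, Hlf and Bhlhe41 higher and Arntl2 lower under the label mPGES-1 KO. The median log2 fold change of the 10 tested was 0.65. Bhlhe41, which encodes the E-box repressor DEC2, averaged 42.0 ± 6.10 CPM under the label mPGES-1 KO and 21.9 ± 7.05 CPM in those labelled WT (log2 fold change 0.94 ± 0.36, edgeR adjusted p = 0.208). Of its exonic bases, 19.0% are shared with the opposite-strand model Gm43909. Rorb, a relative of Rora known from retina and brain, stayed under the filter for tests, with at most 2.85 CPM in any library.

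Read library by library, the members did not move as a block. In mPGES-1 KO replicate 3, Arntl and Cry1 were the lowest and Per3 the highest of all 6 libraries, with log2 levels 2.38 and 1.55 below and 0.38 above the mean of each gene. In that library Per2 lay below its mean (-0.77 on the log2 scale), while Dbp, Nr1d1 and Nr1d2 lay above theirs (0.34, 0.30 and 0.94). Ciart, a repressor of CLOCK and BMAL1, was also higher there than in the other libraries labelled mPGES-1 KO, at 4.05 CPM against 0.914 and 0.545 CPM in replicates 1 and 2. WT replicate 1 was another library of its own kind: Per1, Cry2 and Dbp were all at their lowest, at -1.37, -2.70 and -0.69 relative to the mean of each gene, and Npas2 at -3.86. WT replicate 3 had the highest Per1, Cry2 and Dbp and the lowest Per2, Nr1d1 and Nr1d2.

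**Figure D3:**
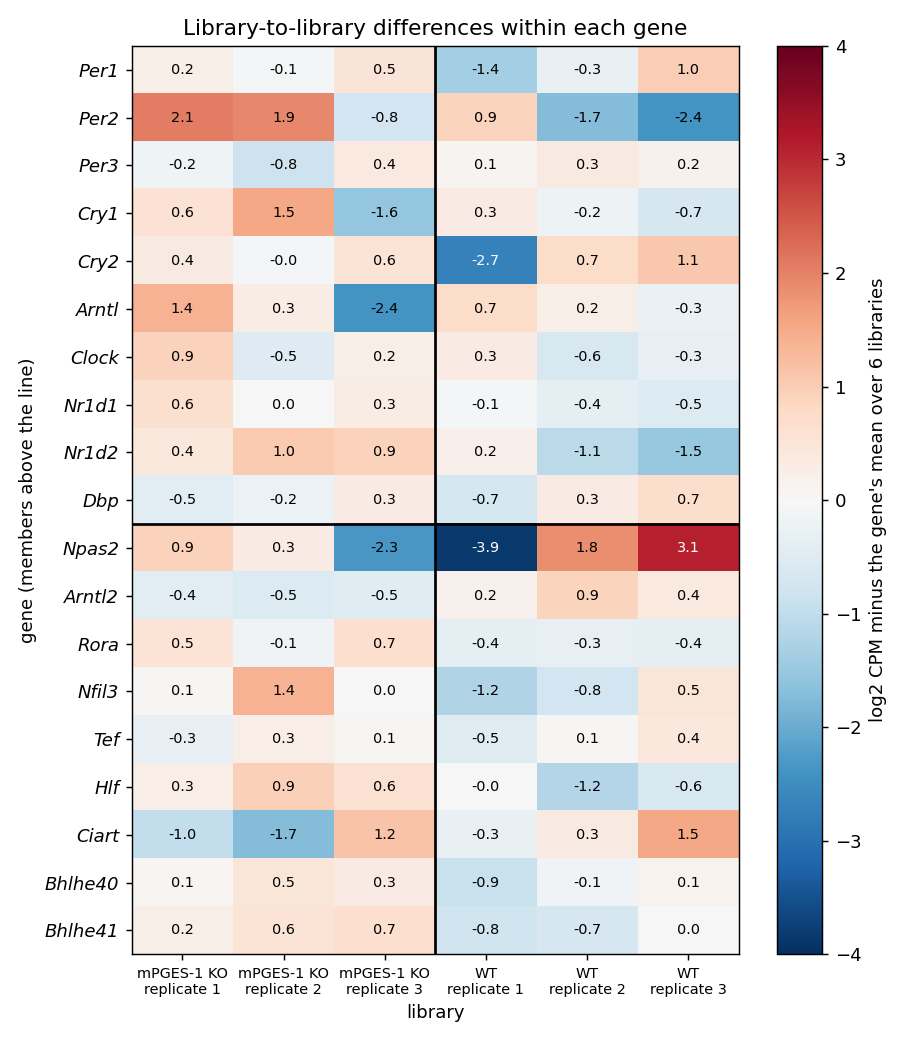
Log2 CPM minus the mean of each gene over the 6 libraries (colour and printed value), for the 10 clock genes above the line and 9 other loop genes below it, with the libraries labelled mPGES-1 KO on the left. The column of mPGES-1 KO replicate 3 is low for Arntl, Cry1 and Npas2, and that of WT replicate 1 is low for Per1, Cry2 and Npas2.

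To set the opposing arms against each other within a library, where the scaling cancels, the mean log2 CPM of Nr1d1, Nr1d2, Dbp and Per3 was subtracted from that of Arntl. This difference was 0.75, -0.25 and -3.41 in mPGES-1 KO replicates 1 to 3, against 0.29, -0.12 and -0.53 in WT replicates 1 to 3. The libraries labelled WT lay within 1 log2 unit of each other, whereas mPGES-1 KO replicate 3 lay more than 2 units under every other library. The mean was -0.97 ± 2.17 in the libraries labelled mPGES-1 KO, against -0.12 ± 0.41 for WT (SD, n = 3 each), a difference of -0.85 that was 0.37 without that library and -1.71 without mPGES-1 KO replicate 1. Without Nr1d1, whose counts may include Thra reads, the difference was -0.78. Taken against a single gene, it was -2.06 for Nr1d2 and -1.09 for Nr1d1, but -0.22 for Dbp and -0.04 for Per3. The difference between groups thus lay mostly with the REV-ERB genes and was not shared by the whole arm. Against each of these genes, mPGES-1 KO replicate 3 was the lowest library. The difference joins genes of unlike length, so it is read between libraries only and no test was made of it. Time of harvest, which sets this difference in a running clock, is not given in the labels, and its part was not tested.

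**Figure D4:**
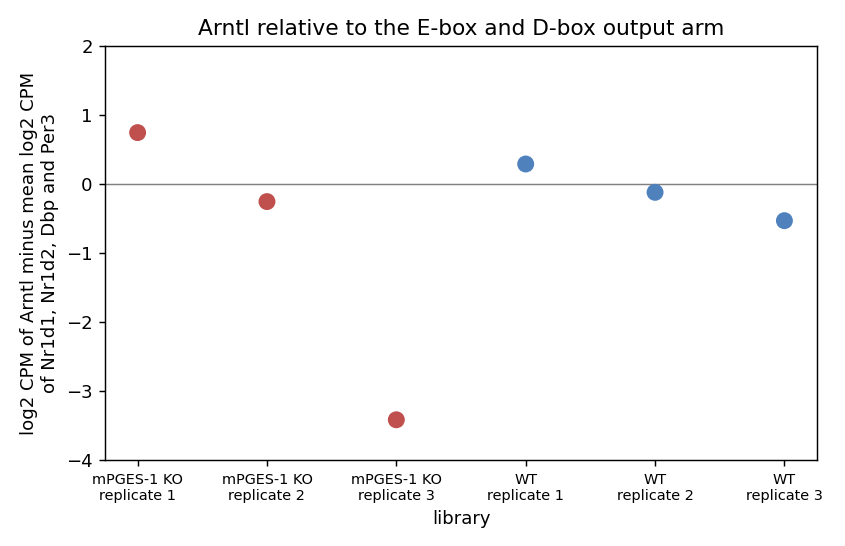
Log2 CPM of Arntl minus the mean log2 CPM of Nr1d1, Nr1d2, Dbp and Per3, with a point for each library. mPGES-1 KO replicate 3 lies at -3.41, and the other 5 libraries lie between -0.53 and 0.75.

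On a scale of CPM per kilobase of annotated exon, on which genes can be compared, Nr1d1 was the most abundant member with 27.8 ± 6.18 in the libraries labelled mPGES-1 KO, against 17.8 ± 3.06 for WT (SD, n = 3 each). By the mean over the 6 libraries it was followed by Nr1d2 (10.3), Per1 (9.76), Dbp (5.91), Cry1 (5.05), Cry2 (4.54), Clock (3.69), Arntl (3.27), Per2 (2.23) and Per3 (1.28). The place of Nr1d2 differed between groups: at 15.0 ± 3.28 it was behind only Nr1d1 for mPGES-1 KO, whereas at 5.57 ± 3.69 for WT it was also behind Per1 (9.22 ± 7.16) and Dbp (6.54 ± 2.86). Over the 6 libraries, the ranges of every pair of neighbours in that order overlapped, so the order of neighbours is not fixed. Nr1d1 led in all libraries but WT replicate 3, where Per1 reached 17.2 and Nr1d1 15.2 CPM per kilobase. Lengths here are the union of all annotated exons, from 2993 bases for Dbp to 13727 for Clock, and stand for the transcripts made only roughly.

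Around the loop, the genes whose proteins modify clock proteins were not called. Of 10 tested kinases, ubiquitin ligase parts and cofactors, edgeR called 0, 2 had an unadjusted p under 0.05 and the median log2 fold change was 0.29. DESeq2 called 1 of the 9 it gave an adjusted p and limma-voom 1 of 10, in both Csnk1a1, against 14.3% and 11.8% of all genes. Of all genes, 19.1% had an unadjusted p under 0.05. Csnk1a1, which encodes casein kinase 1 alpha, was at 617, 624 and 558 CPM across mPGES-1 KO replicates 1 to 3, against 369, 284 and 228 CPM across WT replicates 1 to 3 (log2 fold change 1.03 ± 0.27, edgeR adjusted p = 0.0898). Its groups were apart. Nono, a cofactor of the PER proteins, overlapped between groups (log2 fold change 0.62 ± 0.35, edgeR adjusted p = 0.399).

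Among genes that the clock is known to drive, 1 of 10 tested was called in edgeR, where 2.76% of all genes were called and 1.2% were called higher. Klf10, a TGF-beta-induced repressor with a circadian rhythm in liver, rose to 412, 387 and 288 CPM across mPGES-1 KO replicates 1 to 3, against 32.5, 59.2 and 91.0 CPM across WT replicates 1 to 3. The log2 fold change was 2.57 ± 0.41 (edgeR adjusted p = 0.0280). Leaving out mPGES-1 KO replicate 1, 2 or 3 lost the call (edgeR adjusted p = 0.0632, 0.106 and 0.0748), as did leaving out WT replicate 2 (0.117). Unadjusted p was under 0.05 in 7 of the 10, against 19.1% of all genes, and their median log2 fold change was 0.28, with 5 positive and 5 negative. DESeq2 called 4 of the 10 and limma-voom 5, where these tools called 14.3% and 11.8% of all genes. Others of the list went different ways without passing in that edgeR fit. Tspan4, a tetraspanin that cycles in many tissues, averaged 57.0 ± 19.7 CPM for mPGES-1 KO and 174.9 ± 33.3 CPM for WT (edgeR adjusted p = 0.0509). Leo1, a subunit of the PAF1 elongation complex, averaged 82.5 ± 17.5 CPM for mPGES-1 KO and 35.4 ± 2.14 CPM for WT (edgeR adjusted p = 0.0663). Tspan4 and Leo1 passed in DESeq2 (adjusted p = 0.0013 and 0.0023) and in limma-voom (0.0148 and 0.0265). In edgeR both passed at 1 CPM in at least 3 libraries (0.0456 and 0.0499), and Tspan4 with library size alone (0.0486). Without WT replicate 2 their edgeR adjusted p was 0.202 and 0.226. Of Tspan4's exonic bases, 13.4% are shared with Chid1 on the opposite strand.

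Genes that answer to signals acting on Per1 and Per2 were taken as 2 more lists. The signals themselves were not measured, only the RNA of these genes. Of 11 immediate early and cAMP-responsive genes, edgeR called 1, Atf3, where it called 2.76% of all genes. Atf3, which encodes a stress-induced factor, averaged 4027 ± 306 CPM under the label mPGES-1 KO and 531 ± 201 CPM in those labelled WT (log2 fold change 2.92 ± 0.38, edgeR adjusted p = 0.0177). Leaving out mPGES-1 KO replicate 2 or 3 lost this call (edgeR adjusted p = 0.0881 and 0.0677), as did leaving out WT replicate 2 (0.0587). Ier2 and Junb did not pass in edgeR (log2 fold changes -1.33 ± 0.39 and -1.01 ± 0.33, adjusted p = 0.113 and 0.140). They passed in DESeq2 (adjusted p = 0.011 and 0.0259) and in limma-voom (0.0187 and 0.0200). With Atf3 these tools each called 3 of the 11, where they called 14.3% and 11.8% of all genes. In Ier2 and Junb every mPGES-1 KO value lay below every WT value, where 15.7% of all genes were so separated. Btg2, an antiproliferative immediate early gene, differed the other way without passing, at 1156, 1762 and 1486 CPM across mPGES-1 KO replicates 1 to 3, against 658, 476 and 1188 CPM across WT replicates 1 to 3 (log2 fold change 0.92 ± 0.39, edgeR adjusted p = 0.252). Of the exonic bases of Junb, 7.52% are shared with Prdx2 on the opposite strand. Of these 11 genes 4 had an unadjusted p under 0.05, where 19.1% of all genes did, 4 were positive and 7 negative, and the median log2 fold change was -0.09. Of 9 glucocorticoid response genes edgeR called 0, with 2 at an unadjusted p under 0.05 (19.1% of all genes). DESeq2 and limma-voom each called 2, Klf9 and Fkbp5 (14.3% and 11.8% of all genes). Klf9 and Tsc22d3 are also in the list of output genes, so the calls of Klf9 count in both lists. The log2 fold changes of the 9 were positive in 4 and negative in 5, from -1.85 to 1.11 for Mt2, a metallothionein gene, with a median of -0.04. Klf9, a clock-linked repressor induced by glucocorticoids, averaged 108.6 ± 16.6 CPM under the label mPGES-1 KO and 218 ± 45.9 CPM in those labelled WT (log2 fold change -1.01 ± 0.27, edgeR adjusted p = 0.0912). Fkbp5, a chaperone of the glucocorticoid receptor, averaged 11.4 ± 7.41 CPM for mPGES-1 KO and 41.3 ± 19.6 CPM for WT (log2 fold change -1.85 ± 0.61, edgeR adjusted p = 0.146). Tsc22d3, which encodes the glucocorticoid-induced leucine zipper, had a log2 fold change of -0.57 ± 0.28 (edgeR adjusted p = 0.326). Per1 and Per2, which share such inputs, had groups that overlapped, as given above.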

How the data were processed

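The deposited table holds raw read counts per gene symbol, which the authors left without normalization. The submitters' processing notes list mm10 as the build, with STAR and FastQC 0.11.5 as tools. The sources used here do not give the counting program, its annotation or any filter. Per the labels' protocols, cDNA went through 16 rounds of PCR and was read as single ends of 75 bases, with a kit that does not mark strand.

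Counts were fitted in R 4.3.3 with edgeR 4.0.16 (filterByExpr, TMM, robust quasi-likelihood test, two-sided, Benjamini-Hochberg adjustment over 16543 genes) on all 6 libraries without a covariate. SE is the absolute log2 fold change over the square root of F. Alternatives used DESeq2 1.42.0 and limma 3.58.1. Exon overlaps come from GENCODE M21.

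Members and lists were chosen with earlier results of these data known. Named are all members, Ptges, called list genes, the 3 uncalled of each list with the smallest adjusted p, and genes sharing exons with a member; marker lists are given as sums. The loop genes Npas2, Rorb, Hlf and Ciart, and Mt2, were named after their values were seen. Some genes of the lists are counted but not reported by name here.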

Additional observations from a re-analysis of the deposited data

How the results depend on the processing

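Over 140 comparisons (14 alternatives for each of 10 clock genes), 127 kept direction and call, 3 passed (Nr1d2) and 10 turned direction in 4 genes that were never called. The alternative at an adjusted p under 0.1 reuses the same fit, so no direction could change there. With the smallest edgeR adjusted p of the 10 at 0.161, no call could change there either. Cry2 became 0.44 with the replicate number as a block, 0.09 without mPGES-1 KO replicate 2, 0.19 without WT replicate 2 and 0.44 without WT replicate 3. Arntl became -0.27 in limma-voom, -0.42 with the replicate block, -0.79 without mPGES-1 KO replicate 1 and -0.07 without WT replicate 3. Per1 became -0.20 without WT replicate 1, and Dbp 0.0036 without WT replicate 3. With each library left out in turn, Per1 ran from -0.20 to 0.98, Cry2 from -0.58 to 0.44, Arntl from -0.79 to 0.66 and Dbp from -0.59 to 0.0036, while Per2 ran from 1.41 to 3.56, Cry1 from 0.034 to 1.25, Clock from 0.08 to 0.83, Per3 from -0.67 to -0.06, Nr1d1 from 0.46 to 0.81 and Nr1d2 from 1.12 to 2.13. The cause was not tested.

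Of all genes, where 456 of 16543 were called, DESeq2 called 2108 of 14789 (14.3%) and limma-voom 1944 of 16543 (11.8%). The count was 445 with library size alone, 585 of 14234 at 1 CPM in at least 3 libraries and 1113 at an adjusted p under 0.1. It was 0 with the replicate block and 0 to 568 with a library left out. Clock genes called, of 10 tested, were 1 in DESeq2 and in limma-voom and 0 to 1 with a library left out. Other loop genes called, of 10 tested, were 1 in limma-voom. Clock protein modifiers called were 1 of 9 tested in DESeq2, and 1 of 10 in limma-voom and at 0.1. Output genes called, of 10 tested, were 2 with library size alone, 3 at 1 CPM in at least 3 libraries, 4 in DESeq2 and 5 in limma-voom. They were 0 of 10 with the block, 4 of 10 at 0.1 and 0 to 1 of 10 or 11 with a library left out. Immediate early genes called, of 11 tested, were 3 in DESeq2 and in limma-voom, 0 with the block and 0 to 1 with a library left out. Glucocorticoid genes called, of 9 tested, were 2 in DESeq2 and in limma-voom and 1 at 0.1. The Arntl difference between arms ran from -1.71 to 0.37 with a library left out.

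Same-numbered libraries did not deviate together over 16543 genes (r = -0.060, 0.028 and -0.020 for numbers 1 to 3), so the number is not shown to pair them. With a library left out, its group was fitted with 2 libraries. Reads per clock gene and library ran from 50 to 3528, and a count of 0 in a library would allow up to 0.0683 to 0.126 CPM.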
